A study of Mus musculus with 10 samples.

Results

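The expression of 43 genes that encode the DNA replication machinery was followed over 5 kinds of mouse stem cell culture, beginning with embryonic stem (ES) cells and ending with neural stem cells from the brain. The genes were taken as a list of replication proteins, chosen with earlier results of these data known. For each gene 1 probe set was used, and all 43 were among the 19938 genes measured. The mESC group was the R1 line, from the 129/Sv strain, grown on fibroblast feeders arrested with mitomycin C, in 15% serum with 1000 U/ml Lif, the cytokine that keeps mouse ES cells undifferentiated. The p-NSC_L group consisted of primary spheres of R1-derived primitive neural stem cells, plated at 20 cells per µl and grown for 5 to 7 days in serum-free N2 medium with 1000 U/ml Lif. The p-NSC_LF group was the next passage of those spheres, with 1000 U/ml Lif, 10 ng/ml FGF and 2 µg/ml heparin. The d-NSC group was the R1-derived definitive neural stem cells, obtained by passaging primitive ones into N2 and B27 medium with 20 ng/ml EGF, 20 ng/ml FGF and 2 µg/ml heparin, without Lif. The CNS-NSC group was neural stem cells isolated from the frontal lobes of wild-type ICR embryos at E11.5 and cultured with N2 and the same amounts of EGF, FGF and heparin, with no B27 named. Each group had 2 arrays, which the labels call biological replicates. The labels name R1 as the line of mESC and as the source of the next 3 groups, the strain differs between them and CNS-NSC, and culture medium changes with every group, so strain, medium and cell type cannot be told apart.

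Eukaryotic chromosomes are copied from many origins that are marked by the origin recognition complex (ORC). In G1 phase, ORC with Cdc6 and Cdt1 loads the MCM helicase ring onto DNA, a step called licensing. In S phase the ring is switched on by Cdc45, the GINS complex and Mcm10, DNA polymerase alpha-primase starts each new strand, and polymerases epsilon and delta extend the leading and lagging strands with the sliding clamp PCNA. Mouse ES cells are known for short G1 phases and a large share of cells in S phase, and many genes for these proteins are known targets of the E2F transcription factors.

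Values are log2 intensities, so a difference of 1 is a 2-fold change. A gene was called higher or lower in a comparison where limma's test gave a Benjamini-Hochberg adjusted p under 0.05 over all 19938 genes, and differences are given ± the standard error (SE) of that fit, with n = 2 arrays per group. All 43 replication genes lay above the median gene's mean level of 8.10. Array medians over all genes lay between 7.99 and 8.13, close together after RMA. Replicates were less alike in p-NSC_L and CNS-NSC than elsewhere: 167 and 277 genes of all measured differed 2-fold or more between the 2 arrays of those groups, against 30 in mESC, 23 in p-NSC_LF and 1 in d-NSC. The SD between replicates over the replication genes was 0.222 in p-NSC_L and 0.154 in CNS-NSC, against 0.075 to 0.083 in the other groups. In bulk RNA, fewer cells in S phase and less replication RNA in each cell cannot be told apart.

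The labels were checked against marker genes. The mean level of 8 ES cell markers was 12.47 to 12.54 in mESC, 12.58 to 12.69 in both p-NSC groups, 10.22 to 10.26 in d-NSC and 7.83 to 7.86 in CNS-NSC. The mean of 8 neural stem cell markers was 8.68 to 8.70 in mESC and 8.55 to 8.82 in the p-NSC groups, against 11.03 in d-NSC and 11.87 to 11.89 in CNS-NSC. The 2 groups labelled primitive neural stem cells thus had ES markers near the mESC level. Of the 8 neural markers, 3 were called higher and 1 lower in p-NSC_L against mESC, where 6.56% of all genes were called higher and 6.79% lower. Slc1a3, Fabp7 and Vim lay higher on both p-NSC_L arrays than on either mESC array. Slc1a3 was at 9.74 and 9.62 in p-NSC_L, against 8.77 and 8.80 in mESC. Pax6 lay lower, at 6.94 and 6.80 in p-NSC_L, against 8.32 and 8.23 in mESC. Nes, an intermediate filament of neural progenitors, was at 7.26 and 6.94 in p-NSC_L and at 7.17 and 7.38 in p-NSC_LF, against 7.48 and 7.47 in mESC. The d-NSC arrays kept Pou5f1, the ES cell factor Oct4, at 11.15 and 10.94, against 6.97 and 6.92 in CNS-NSC. Hprt, a housekeeping gene looked up after its values were known, was at 6.99 and 6.76 in mESC and between 10.45 and 11.60 in the other 4 groups, though p-NSC and d-NSC are labelled as derived from the same line as mESC. A different ES line or subclone in mESC, beside the change of culture, cannot be told apart from these files, and this holds for every comparison with mESC.

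Most replication genes were at their highest in ES cells and at their lowest in the brain-derived neural stem cells. The median level of the 43 genes was 11.04 and 11.08 on the mESC arrays, 10.84 and 11.11 in p-NSC_L, 10.76 and 10.83 in p-NSC_LF, 10.52 and 10.56 in d-NSC, and 10.17 and 10.20 in CNS-NSC. For 32 of the 43 the highest group mean was in mESC, and for 25 of them both mESC arrays lay above all 8 others, a pattern held by 8.10% of all genes. The lowest group mean was in CNS-NSC for 25 members, and for 23 both CNS-NSC arrays lay below all others, as they did for 14.9% of all genes. A moderated F-test over the 5 groups called 36 of the 43, with 57.7% of all genes called and 81.6% of the 8094 genes at least as bright as the dimmest member. The 7 members not called were Orc4, Gins2, Prim2, Pcna, Rfc3, Rpa3 and Fen1. Taking the groups in the order mESC, p-NSC_L, p-NSC_LF, d-NSC and CNS-NSC, the group mean was lower at each of the 4 steps for 12 members: Orc1, Orc2, Mcm3, Mcm6, Mcm10, Gins3, Gins4, Pole, Pole2, Rfc1, Lig1 and Tyms. The share of all genes with this course was not counted, and some of the steps were very small. For example, Pole2 differed by -0.02 in p-NSC_LF against p-NSC_L, and Lig1 averaged 10.58 in d-NSC and 10.57 in CNS-NSC.

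**Figure D1:**
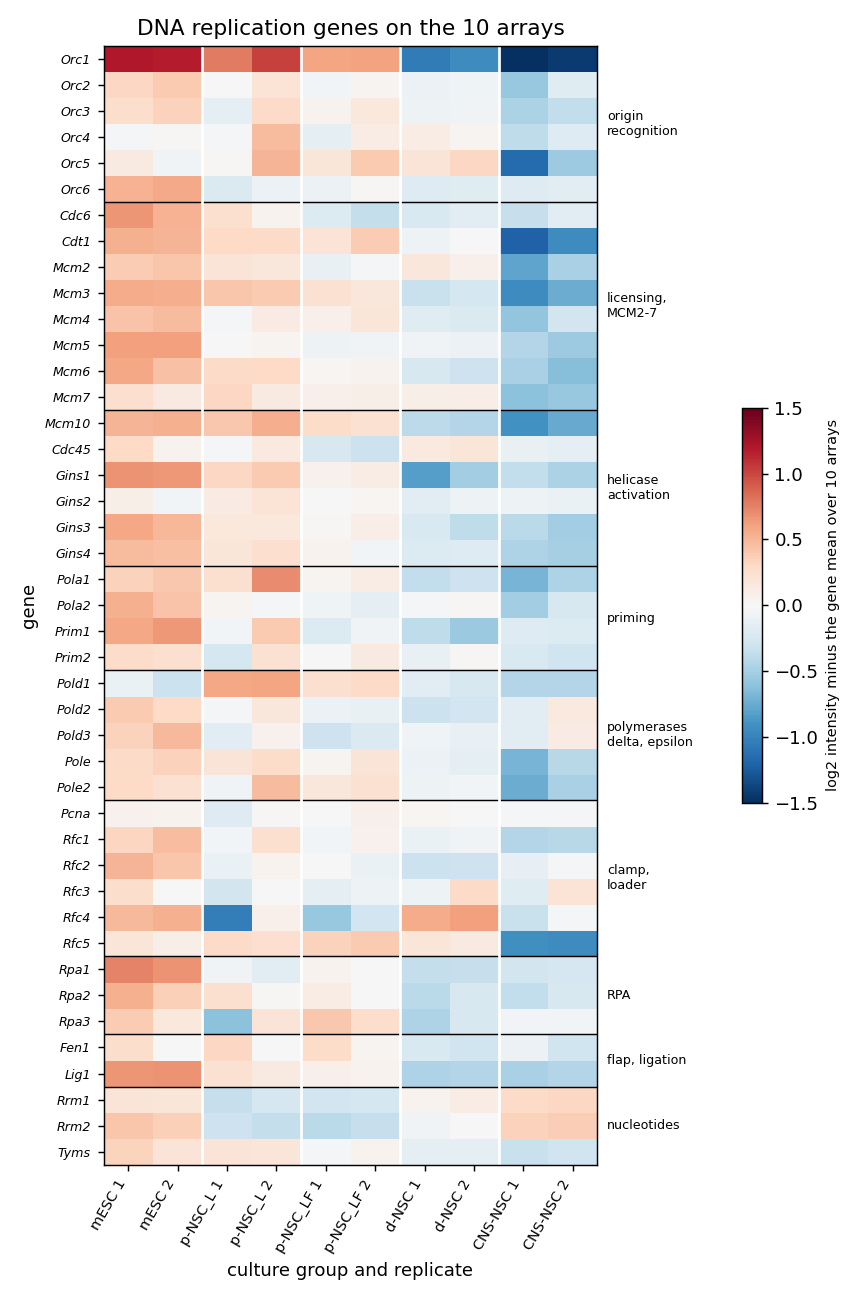
Each row is a replication gene, grouped by role, and each column an array; colour gives the log2 intensity minus that gene's mean over the 10 arrays. Most rows are red in mESC and blue in CNS-NSC, and Orc1 has the widest range. Rrm1 and Rrm2 are lowest in the p-NSC columns, and Rfc4 is lowest there by group mean only.

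Measured end to end, d-NSC expressed the replication genes below mESC. In d-NSC against mESC, 27 of the 43 (62.8%) were called lower and 0 higher by limma, where 19.9% of all genes were called lower, 20.7% higher and 40.5% either way. Of the genes at least as bright as the dimmest member, 31.9% were called lower. The median difference of the members was -0.49, against 0.03 over all genes. Orc1, Gins1, Prim1, Rpa1 and Lig1 fell by at least 2-fold, as did 5.28% of all genes. Of the 27 calls, 20 held under all 18 alternative settings, and those of Orc2, Pola2, Pold3, Pole, Rfc1, Rpa3 and Tyms were lost in at least 1. Among the 16 not called were Pcna, Cdc45, Mcm2 and Mcm7, and at an unadjusted p under 0.05 no member was higher (0 of 43) while 30 were lower. That is 69.8% of members, beside 47.1% of all genes passing the same threshold in either direction. When each array was centred on its own median, the all-gene median of this comparison was -0.08, the members' median was -0.60, and 30 members were called lower.

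At the first culture step, p-NSC_L against mESC, 12 members were called lower and Pold1 higher, where 6.79% of all genes were called lower, 6.56% higher and 13.4% either way; the members' median difference was -0.27, against 0.02 over all genes. The members called lower made up 27.9% of the 43, beside 10.5% of genes at least as bright. Only 5 of these 13 calls held under all 18 alternative settings: Orc6, Mcm5, Rpa1 and Rrm2, which fell, and Pold1, which rose. Leaving out mESC replicate 1 or mESC replicate 2 left 5 calls each, and the median was -0.16 without p-NSC_L replicate 1. In p-NSC_LF against p-NSC_L, limma called 0 members, where 1.78% of all genes were called, and the members' median was -0.11. At an unadjusted p under 0.05, 8 members passed, 7 lower and 1 higher, or 18.6% of members beside 13.6% of all genes. Without p-NSC_L replicate 1, Pola1 was called lower (-0.63), and without p-NSC_L replicate 2, Rpa3 was called higher (0.97). The p-NSC_LF passage is where FGF and heparin were added.

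In d-NSC against p-NSC_LF, 14 members were called lower and 4 higher, where 19.3% of all genes were called lower, 19.3% higher and 38.6% either way. The members called lower made up 32.6% of the 43, close to the 30.3% called lower among genes at least as bright. Their median difference was -0.20, against -0.01 over all genes. Calls that held under every alternative setting were the falls of Orc1, Mcm3, Mcm10, Gins1 and Lig1. The total of 18 calls dropped to 7 without p-NSC_LF replicate 1, 8 without p-NSC_LF replicate 2, 8 without d-NSC replicate 1 and 5 without d-NSC replicate 2. With arrays centred on their medians the split was 19 lower and 2 higher.

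Set against neural stem cells from the brain, d-NSC had 5 of the 8 licensing and MCM2-7 helicase genes called higher. In d-NSC against CNS-NSC, 14 members were called higher and only Rrm2 lower, where 17.6% of all genes were called higher, 16.5% lower and 34% either way. The share called higher was 32.6% of members, beside 25.7% of genes at least as bright. The members' median difference was 0.23, against -0.01 over all genes. Centring the arrays on their medians changed the split to 9 higher and 5 lower, and the total was 7 calls without d-NSC replicate 1, against 15 with all arrays. The calls that held under all alternatives were Orc5, Cdt1, Mcm2, Mcm3, Mcm7 and Rfc5, all higher in d-NSC. The comparisons with mESC, p-NSC_LF and CNS-NSC share the d-NSC arrays. In all, 9 members were called both lower in d-NSC than in mESC and higher in d-NSC than in CNS-NSC: Orc1, Cdt1, Mcm3, Mcm5, Mcm10, Gins4, Pola2, Pole and Rfc1. Of these 9, only Cdt1 and Mcm3 kept the call against CNS-NSC under all alternatives. The share of all genes with both calls was not counted.

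**Figure D2:**
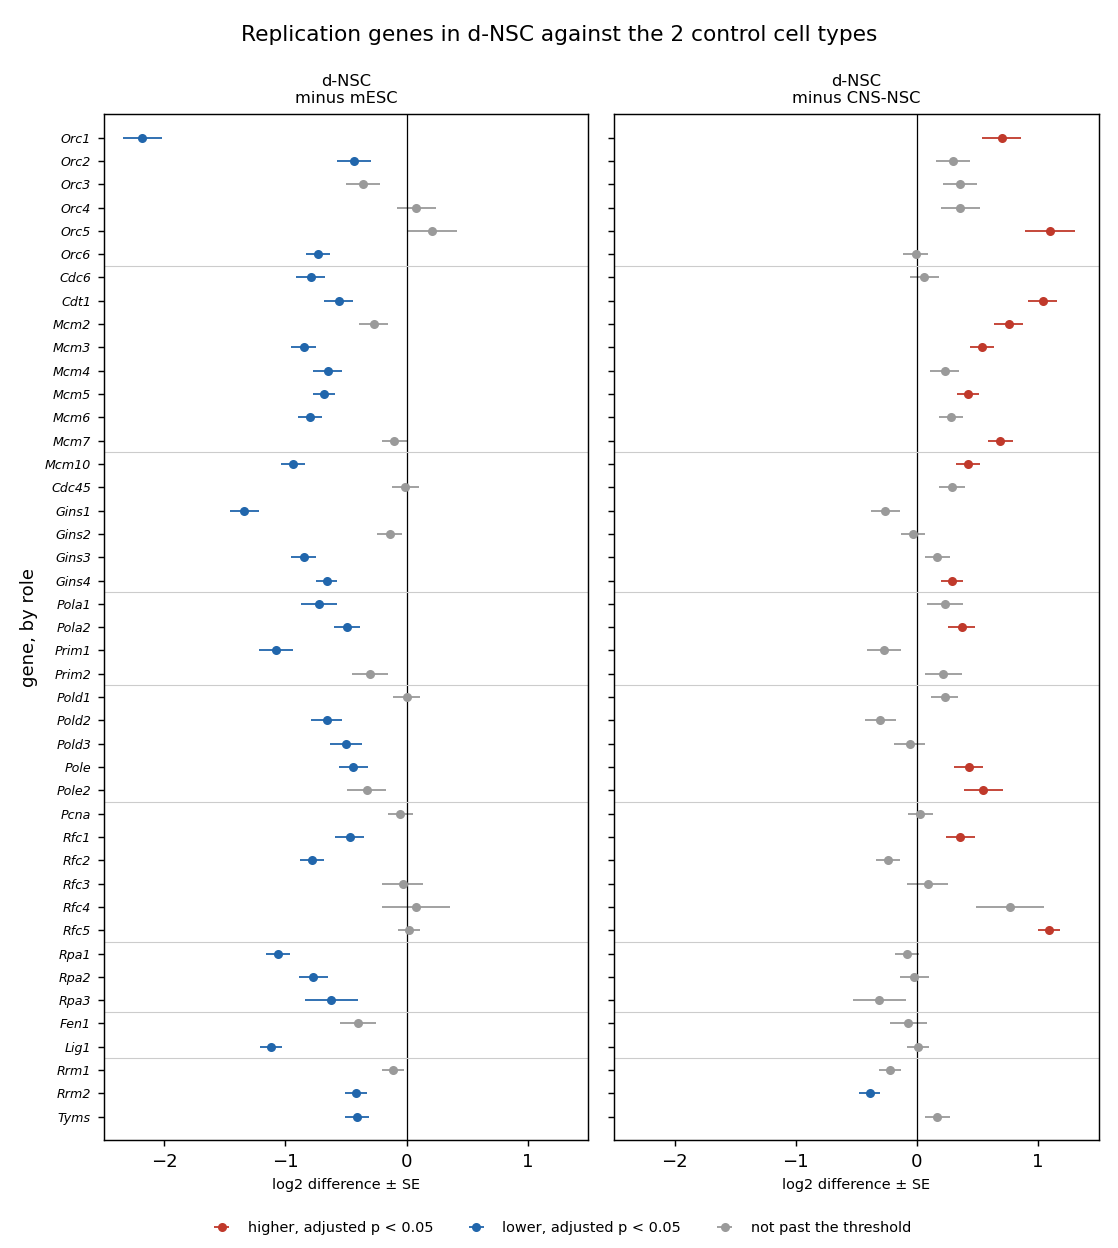
Points give the log2 difference of each replication gene in d-NSC minus mESC (left) and d-NSC minus CNS-NSC (right), with bars of 1 SE from the fit over 10 arrays, coloured by the limma call. Points in the left panel lie mostly below 0, with Orc1 at -2.18; in the right panel 14 lie above 0 in red and Rrm2 lies below in blue.

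Among the origin recognition genes, Orc1 had by far the largest differences. Orc1, the ORC subunit whose level is known to cycle in mammalian cells, was at 10.98 and 10.96 in mESC, 10.56 and 10.81 in p-NSC_L, 10.38 and 10.39 in p-NSC_LF, 8.74 and 8.84 in d-NSC, and 7.82 and 8.35 in CNS-NSC. No group's arrays overlapped those of another, and the largest gap lay between p-NSC_LF and d-NSC. Orc1 fell by 1.60 ± 0.16 in d-NSC against p-NSC_LF (3.02-fold; adjusted p = 2.9e-05) and fell by 2.18 ± 0.16 in d-NSC against mESC (4.52-fold; adjusted p = 3.6e-06), and it was 0.70 ± 0.16 higher in d-NSC than in CNS-NSC (adjusted p = 0.0069), a call lost without d-NSC replicate 2 (0.66; adjusted p = 0.054). The other ORC subunits differed from this. Orc6, a subunit needed to load MCM rings, was at 11.76 and 11.80 in mESC and between 11.02 and 11.25 on the 8 other arrays. It fell by 0.69 ± 0.10 in p-NSC_L against mESC (adjusted p = 0.0016) and was not called in the later steps. Orc5 was at 10.88 and 11.0 in d-NSC, against 9.53 and 10.14 in CNS-NSC, and its level in the other 3 groups ran from 10.64 to 11.20. Its difference of 1.10 ± 0.21 in d-NSC against CNS-NSC had an adjusted p of 0.0022, and the CNS-NSC arrays lay 0.61 apart, the widest replicate gap of any member in that group. Orc2 fell by 0.43 ± 0.14 in d-NSC against mESC (adjusted p = 0.03), a call lost when any 1 of those 4 arrays was left out (-0.38 to -0.47). Orc3 (-0.36) and Orc4 (0.08) were not called in that comparison.

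Promoter sequences were examined for the members because replication genes are known E2F targets. RefSeq promoters (GRCm38.p6), 250 bases before to 50 after the start, were matched for 36 of the 43 genes, 44 promoters in all, and searched on both strands for the E2F-like motifs TTTGGCGC, TTTCCCGC, TTTGCCGC and TTTCGCGC, with overlapping matches counted apart. These letters occurred in 15 of the 44 promoters (34.1%), against 2.26% of all 32851 promoters. Of those 15, 6 belonged to licensing and MCM genes, which is 75% of that role's 8 promoters: Cdc6, Cdt1, Mcm3, Mcm5, Mcm6 and Mcm7. The motif was not particular to the members. In the further lists described below, it occurred in 24.1% of promoters of other replication factors and 46.2% of those of E2F factors and S-phase cyclins. The share was 30.8% for replication-coupled chromatin assembly and 6.25% for G2 and M phase genes. Below, Orc1 and Mcm3 are shown as members whose group mean was lower at each of those steps, and Rfc4 and Rrm2 as members that were lower in p-NSC_L than in mESC and then higher in d-NSC than in p-NSC_LF. Capitals mark E2F-like matches, and each is given 5′ to 3′ on the gene's strand.
Orc1: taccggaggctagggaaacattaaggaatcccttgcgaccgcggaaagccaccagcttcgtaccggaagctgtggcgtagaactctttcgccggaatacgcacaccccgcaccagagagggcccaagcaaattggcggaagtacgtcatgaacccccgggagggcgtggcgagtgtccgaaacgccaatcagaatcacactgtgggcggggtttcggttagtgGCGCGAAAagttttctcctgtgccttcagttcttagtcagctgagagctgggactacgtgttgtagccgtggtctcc
Mcm3: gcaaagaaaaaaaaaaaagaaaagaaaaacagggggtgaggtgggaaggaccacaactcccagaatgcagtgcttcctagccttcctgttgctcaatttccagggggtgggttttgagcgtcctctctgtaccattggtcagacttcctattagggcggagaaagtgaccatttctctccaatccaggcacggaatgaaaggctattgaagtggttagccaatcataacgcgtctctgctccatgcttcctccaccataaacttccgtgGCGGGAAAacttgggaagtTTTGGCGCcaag
Rfc4: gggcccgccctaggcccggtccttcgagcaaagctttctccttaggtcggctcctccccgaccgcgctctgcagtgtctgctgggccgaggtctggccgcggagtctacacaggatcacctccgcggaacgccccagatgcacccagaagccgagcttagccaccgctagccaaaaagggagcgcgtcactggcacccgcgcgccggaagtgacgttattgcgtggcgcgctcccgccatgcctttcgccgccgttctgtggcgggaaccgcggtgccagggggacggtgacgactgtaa
Rrm2: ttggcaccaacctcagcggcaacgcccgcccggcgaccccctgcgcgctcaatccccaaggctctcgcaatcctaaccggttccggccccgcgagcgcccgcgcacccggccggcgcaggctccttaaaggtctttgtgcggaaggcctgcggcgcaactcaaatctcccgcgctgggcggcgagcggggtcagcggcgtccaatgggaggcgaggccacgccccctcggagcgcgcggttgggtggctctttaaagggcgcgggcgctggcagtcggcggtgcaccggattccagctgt
The Orc1 promoter is chr4:108579204-108579503 on the + strand, and its match begins 27 bases before the start. Mcm3's is chr1:20820263-20820562 on the - strand, with matches from bases 20 and 39 of the transcript. Those of Rfc4 (chr16:23127681-23127980, - strand) and Rrm2 (chr12:24708004-24708303, + strand) held none of these letters in this window. The promoters shown do not stand for their courses. Among the members with a lower mean at each step, Mcm6, Gins3, Pole2 and Lig1 also held a match. Orc2, Mcm10, Rfc1 and Tyms, with the same course, held none. Whether the motif goes with either course was not tested. In d-NSC against mESC, the members called lower held it in 10 of 26 promoters (38.5%) and those not called in 5 of 18 (27.8%). CCAAT, the NF-Y motif, occurred on either strand in 25 of 44 (56.8%), against 37.4% of all promoters. The cell cycle homology region, searched as TTTGAA and TTCGAA, occurred in 15.9% of member promoters, against 19.2% of all. A match is a description of letters and not a site of binding.

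Licensing factors and the MCM2-7 helicase had 6 of 8 members called lower in d-NSC against mESC and 5 of 8 called higher in d-NSC against CNS-NSC, with 0 called in the opposite direction in either. The shares of all genes were 19.9% called lower against mESC and 17.6% called higher against CNS-NSC. Among genes at least as bright as the dimmest member they were 31.9% and 25.7%. Cdt1, the factor that brings MCM rings to origins, was at 10.99 and 10.96 in mESC, 10.75 and 10.74 in p-NSC_L, 10.66 and 10.83 in p-NSC_LF, 10.38 and 10.45 in d-NSC, and 9.24 and 9.51 in CNS-NSC. The CNS-NSC arrays lay apart from all others. Cdt1 was 1.04 ± 0.12 higher in d-NSC than in CNS-NSC (2.06-fold; adjusted p = 6.9e-05) and fell by 0.56 ± 0.12 in d-NSC against mESC (adjusted p = 0.0031). Cdc6, its partner in loading, had another course: it fell by 0.79 ± 0.12 in d-NSC against mESC (adjusted p = 0.00037), with levels of 8.44 and 8.51 in d-NSC and 9.34 and 9.20 in mESC, while d-NSC and CNS-NSC (8.33 and 8.50) overlapped.

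The 6 subunits of the MCM ring did not move by the same amount. Mcm3 was at 11.78 and 11.77 in mESC, 11.64 and 11.62 in p-NSC_L, 11.46 and 11.40 in p-NSC_LF, 10.89 and 10.96 in d-NSC, and 10.29 and 10.48 in CNS-NSC, with no overlap between groups. It fell by 0.85 ± 0.10 in d-NSC against mESC (adjusted p = 9e-05), of which 0.50 ± 0.10 lay between d-NSC and p-NSC_LF (adjusted p = 0.0027). Mcm5 was lowered at the first step instead, at 11.07 and 11.12 in p-NSC_L against 11.69 on both mESC arrays, a fall of 0.59 ± 0.09 (adjusted p = 0.0029). Its later levels were 11.0 and 11.03 in p-NSC_LF and 11.03 and 10.99 in d-NSC, and the difference between those groups was -0.0 ± 0.09. Mcm2 and Mcm7 were called at 0 of the 3 culture steps. Mcm2 was at 12.32 and 12.35 in mESC, 12.13 and 12.11 in p-NSC_L, 11.82 and 11.92 in p-NSC_LF, 12.11 and 12.01 in d-NSC, and 11.14 and 11.45 in CNS-NSC. Mcm7 ran from 11.95 to 12.18 on the 8 arrays of the other groups and was at 11.26 and 11.31 in CNS-NSC. In d-NSC against CNS-NSC, Mcm2 was 0.76 ± 0.12 higher (adjusted p = 0.00068) and Mcm7 0.69 ± 0.10 higher (adjusted p = 0.00048); in d-NSC against mESC they differed by -0.27 and -0.10 and were not called. Mcm4 and Mcm6 fell by 0.65 and 0.80 in d-NSC against mESC and were not called against CNS-NSC (0.23 and 0.28).

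**Figure D3:**
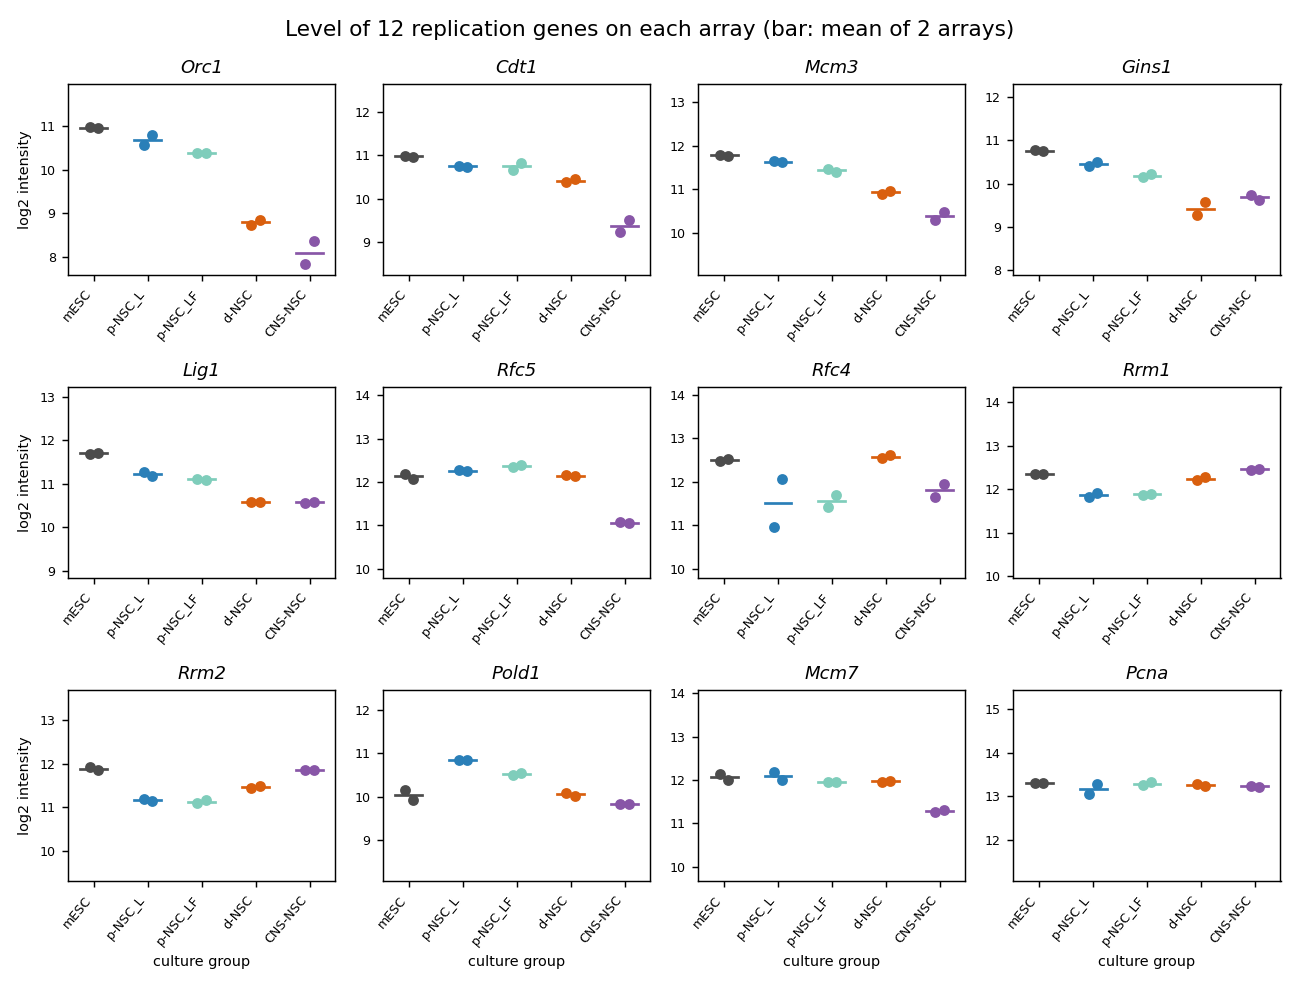
Log2 intensity of 12 replication genes on each array, with a bar at the mean of the 2 arrays of a group; every panel spans the same number of log2 units. Orc1, Mcm3 and Lig1 step down from mESC to d-NSC, Cdt1, Mcm7 and Rfc5 drop in CNS-NSC, Rfc4, Rrm1 and Rrm2 dip in the p-NSC groups, and Pcna is flat.

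Genes that switch the helicase on were called lower in d-NSC against mESC in 4 of 6 cases, where 19.9% of all genes were called lower. Gins1, a GINS subunit, was at 10.77 and 10.75 in mESC, 10.41 and 10.49 in p-NSC_L, 10.16 and 10.21 in p-NSC_LF, 9.27 and 9.58 in d-NSC, and 9.73 and 9.63 in CNS-NSC. Both d-NSC arrays lay below all others. Gins1 fell by 1.34 ± 0.12 in d-NSC against mESC (2.52-fold; adjusted p = 1.1e-05) and by 0.76 ± 0.12 in d-NSC against p-NSC_LF (adjusted p = 0.0005). The 4 GINS proteins act as a unit, yet their genes differed: Gins3 and Gins4 fell by 0.85 and 0.66 in d-NSC against mESC, while Gins2 differed by -0.14 (adjusted p = 0.32). Mcm10, which binds the activated helicase, was at 11.04 and 11.06 in mESC, 10.94 and 11.08 in p-NSC_L, 10.81 and 10.76 in p-NSC_LF, 10.14 and 10.09 in d-NSC, and 9.62 and 9.77 in CNS-NSC. The first 2 groups overlapped and the later ones did not. Its fall in d-NSC against p-NSC_LF was 0.67 ± 0.10 (adjusted p = 0.00046). Cdc45 went the other way at that step, at 9.80 and 9.84 in d-NSC against 9.42 and 9.33 in p-NSC_LF, a rise of 0.44 ± 0.11 (adjusted p = 0.01). That call was lost without p-NSC_LF replicate 2 (0.39; adjusted p = 0.08) or d-NSC replicate 2 (0.42; adjusted p = 0.066).

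Of the 4 subunits of DNA polymerase alpha-primase, 3 were called lower in d-NSC against mESC, where 19.9% of all genes were called lower. Prim1, the catalytic primase subunit, was at 9.92 and 9.75 in d-NSC, against 10.88 and 10.95 in mESC, with 10.26 and 10.69 in p-NSC_L, 10.10 and 10.25 in p-NSC_LF, and 10.11 and 10.10 in CNS-NSC. Both mESC arrays lay above and both d-NSC arrays below all others, and Prim1 fell by 1.08 ± 0.14 in d-NSC against mESC (2.11-fold; adjusted p = 0.00016). Its partner Prim2 differed by -0.30 ± 0.15 (adjusted p = 0.14). Pola1, the catalytic polymerase subunit, fell by 0.72 and Pola2 by 0.49 in the same comparison.

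Polymerases delta and epsilon held the member with the clearest rise. Pold1, the catalytic subunit of polymerase delta, was at 10.16 and 9.93 in mESC, 10.84 and 10.85 in p-NSC_L, 10.50 and 10.54 in p-NSC_LF, 10.09 and 10.01 in d-NSC, and 9.82 on both CNS-NSC arrays. Both p-NSC_L arrays lay above all others. Pold1 rose by 0.80 ± 0.11 in p-NSC_L against mESC (1.74-fold; adjusted p = 0.0012) and fell by 0.47 ± 0.11 in d-NSC against p-NSC_LF (adjusted p = 0.0054; 0.051 without d-NSC replicate 2). The levels in d-NSC and mESC differed by 0.0 ± 0.11. Other delta subunits did not share the rise: Pold3 fell by 0.46 in p-NSC_L against mESC, a call lost in 10 of the 18 alternatives, and Pold2 differed by -0.27 (adjusted p = 0.22). Pole, the catalytic subunit of polymerase epsilon, fell by 0.44 in d-NSC against mESC and was 0.43 higher in d-NSC than in CNS-NSC. Pole2 was 0.55 higher in d-NSC than in CNS-NSC and was not called against mESC (-0.33). Without CNS-NSC replicate 1 the differences from CNS-NSC were 0.29 and 0.43 and neither was called.

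**Figure D4:**
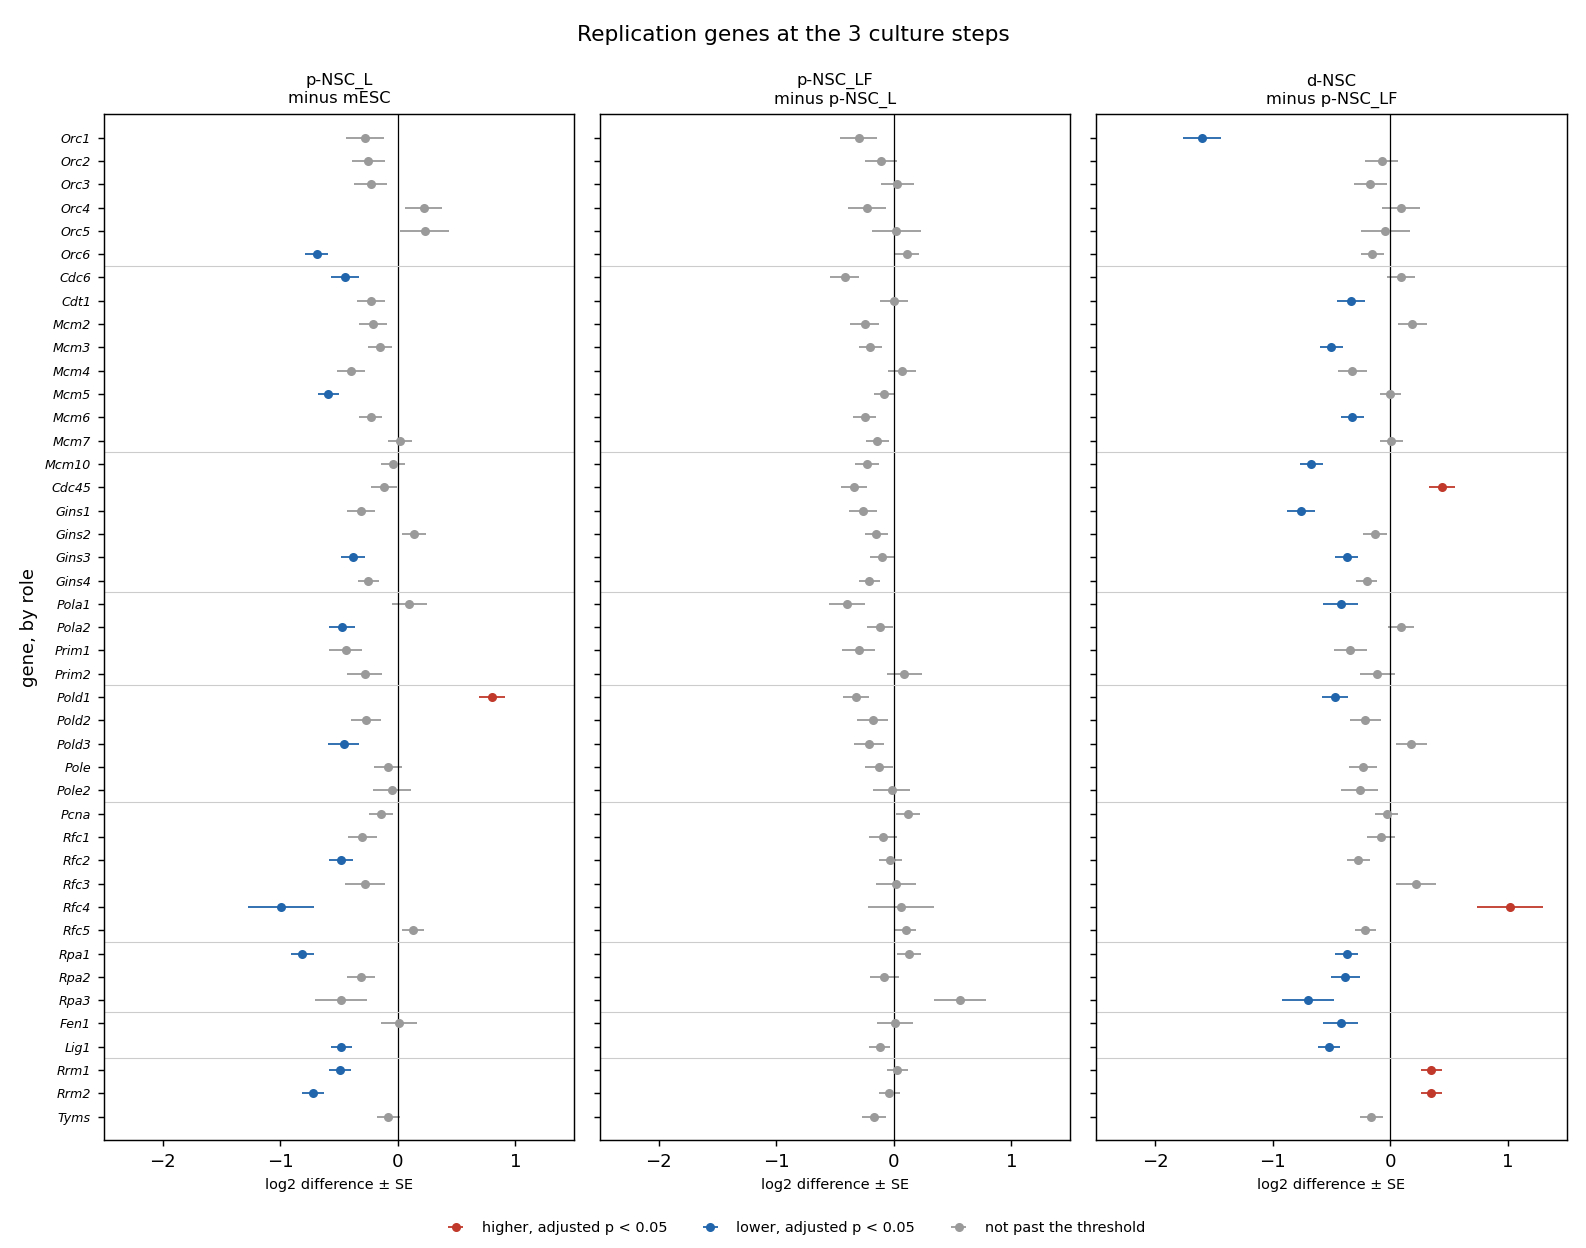
Log2 difference of each replication gene at the 3 successive culture steps, p-NSC_L minus mESC, p-NSC_LF minus p-NSC_L, and d-NSC minus p-NSC_LF, with bars of 1 SE from the fit over 10 arrays. Coloured points number 13, 0 and 18; Rfc4, Rrm1 and Rrm2 are blue at the first step and red at the last, and Pold1 is red at the first and blue at the last.

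The clamp and its loader had 2 of 6 genes called lower in d-NSC against mESC and a median difference of -0.04, the smallest of the 9 roles. That count is 33.3% of the role, near the 31.9% called lower among genes at least as bright as the dimmest member. The share of all genes called lower was 19.9%. Pcna, the sliding clamp and a common proliferation marker, ran only from 13.06 to 13.32 over the 10 arrays and was called in 0 comparisons. Its 2 probe sets differed by at most 0.024, and RefSeq lists the pseudogenes Pcna-ps1 on chromosome X and Pcna-ps2 on chromosome 19, so that signal from near-identical copies cannot be separated and the Pcna values are uncertain. Rfc5, a loader subunit, was at 12.18 and 12.08 in mESC, 12.28 and 12.25 in p-NSC_L, 12.34 and 12.39 in p-NSC_LF, 12.17 and 12.13 in d-NSC, and 11.07 and 11.05 in CNS-NSC. Both CNS-NSC arrays lay below all others and both p-NSC_LF arrays slightly above them. The difference of d-NSC against CNS-NSC was 1.09 ± 0.09 (2.13-fold; adjusted p = 1.1e-05), while d-NSC and mESC differed by 0.02. Rfc4 had a different course, at 12.47 and 12.52 in mESC, 10.95 and 12.06 in p-NSC_L, 11.42 and 11.70 in p-NSC_LF, 12.55 and 12.61 in d-NSC, and 11.65 and 11.96 in CNS-NSC. The p-NSC_L arrays lay 1.106 apart, the widest replicate gap of any member. Rfc4 fell by 0.99 ± 0.28 in p-NSC_L against mESC (adjusted p = 0.044) and rose by 1.02 ± 0.28 in d-NSC against p-NSC_LF (2.03-fold; adjusted p = 0.015). Without p-NSC_L replicate 1 the first difference was -0.44 (adjusted p = 0.13), and without p-NSC_LF replicate 1 the other was 0.87 (adjusted p = 0.1). Rfc1 and Rfc2 fell by 0.47 and 0.78 in d-NSC against mESC, and Rfc3 differed by -0.03.

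All 3 genes of RPA, the complex that coats unwound DNA, were called lower in d-NSC against mESC and in d-NSC against p-NSC_LF. The shares of all genes called lower in these comparisons were 19.9% and 19.3%. The calls against p-NSC_LF were lost in 3 of the 18 alternatives for Rpa1, 4 for Rpa2 and 4 for Rpa3. Rpa1, the large subunit, was at 11.34 and 11.28 in mESC, 10.55 and 10.43 in p-NSC_L, 10.65 and 10.59 in p-NSC_LF, 10.24 and 10.26 in d-NSC, and 10.32 and 10.35 in CNS-NSC. Only mESC stood well above the rest. Rpa1 fell by 0.81 ± 0.10 in p-NSC_L against mESC (adjusted p = 0.00067) and by 1.06 ± 0.10 in d-NSC against mESC (2.08-fold; adjusted p = 1.4e-05). Rpa3, the small subunit, was at 10.38 and 10.16 in mESC, 9.38 and 10.19 in p-NSC_L, 10.41 and 10.27 in p-NSC_LF, 9.54 and 9.76 in d-NSC, and 9.96 on both CNS-NSC arrays. The p-NSC_L values span those of d-NSC and CNS-NSC, and a second Rpa3 probe set read 0.625 to 1.253 lower on every array. Its fall of 0.70 ± 0.22 in d-NSC against p-NSC_LF (adjusted p = 0.028) was lost when any 1 of those 4 arrays was left out (-0.59 to -0.80). The fall of Rpa3 against mESC was lost in 9 of the 18 alternatives, among them the mean of both probe sets (-0.44, adjusted p = 0.068). Lig1, the ligase that joins Okazaki fragments, was at 11.69 and 11.71 in mESC, 11.26 and 11.17 in p-NSC_L, 11.11 and 11.09 in p-NSC_LF, 10.57 and 10.59 in d-NSC, and 10.55 and 10.59 in CNS-NSC. It fell by 1.12 ± 0.09 in d-NSC against mESC (2.17-fold; adjusted p = 7.8e-06) and d-NSC overlapped CNS-NSC. Fen1, the flap nuclease that prepares those fragments, fell by 0.42 in d-NSC against p-NSC_LF, a call lost when any 1 of those 4 arrays was left out (-0.31 to -0.53).

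Both genes of ribonucleotide reductase, which makes deoxynucleotides, were lowest in the p-NSC groups. Rrm2, the small subunit of ribonucleotide reductase, was at 11.92 and 11.86 in mESC, 11.19 and 11.15 in p-NSC_L, 11.10 and 11.16 in p-NSC_LF, an average of 11.47 ± 0.03 (SD, n = 2) in d-NSC, and 11.85 and 11.87 in CNS-NSC. The levels in mESC and CNS-NSC overlapped. Rrm2 fell by 0.72 ± 0.09 in p-NSC_L against mESC (1.65-fold; adjusted p = 0.00096), rose by 0.35 ± 0.09 in d-NSC against p-NSC_LF (adjusted p = 0.013) and was lower in d-NSC than in CNS-NSC (difference -0.39 ± 0.09; adjusted p = 0.0086). Rrm1, the large subunit, was at 12.35 and 12.34 in mESC, 11.81 and 11.91 in p-NSC_L, 11.87 and 11.90 in p-NSC_LF, 12.21 and 12.27 in d-NSC, and 12.45 and 12.47 in CNS-NSC. It was the only member with its highest group mean in CNS-NSC. Rrm1 fell by 0.49 ± 0.09 in p-NSC_L against mESC (adjusted p = 0.0082) and rose by 0.35 ± 0.09 in d-NSC against p-NSC_LF (adjusted p = 0.014). Both rises were lost when any 1 of the d-NSC or p-NSC_LF arrays was left out (0.32 to 0.38) or when arrays were centred (0.26 for Rrm1, 0.25 for Rrm2). The fall of Rrm1 was lost without either mESC array (adjusted p = 0.064 and 0.056), and the fall of Rrm2 in p-NSC_L held in all 18 alternatives. Tyms, thymidylate synthase, kept to the declining course, with a fall of 0.41 in d-NSC against mESC; RefSeq lists a transcribed pseudogene, Tyms-ps, on chromosome 10, so its signal may be shared.

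Genes that work beside the replication machinery were described from 4 lists. Of 34 other replication factors, 21 (61.8%) were called lower and 2 (5.88%) higher in d-NSC against mESC, with a median difference of -0.45. Of all genes, 19.9% were called lower and 20.7% higher there. Tipin, part of the fork protection complex, was at 9.78 and 9.90 in d-NSC, against 11.59 and 11.70 in mESC, a fall of 1.80 ± 0.16 (adjusted p = 1.2e-05). Gmnn, geminin, the inhibitor of Cdt1, was at 7.13 and 7.12 in d-NSC, against 8.74 and 8.45 in mESC, and fell by 1.47 ± 0.13. Pole4, a small subunit of polymerase epsilon, rose by 0.53 in that comparison. Against CNS-NSC, 5 of the 34 (14.7%) were called higher in d-NSC and 7 (20.6%) lower, near the 17.6% and 16.5% of all genes. Tk1, the thymidine kinase of S phase, was at 9.26 and 9.25 in d-NSC, against 10.20 and 10.31 in CNS-NSC, a difference of -1.0 ± 0.10 beside the -0.39 of Rrm2.

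Regulators of S phase entry were mixed. Of 16 E2F factors, pocket proteins and S-phase cyclins, 3 (18.8%) were called higher and 5 (31.2%) lower in d-NSC against mESC. Of all genes, 20.7% were called higher and 19.9% lower there. In d-NSC against p-NSC_LF, 7 (43.8%) were called higher and 3 (18.8%) lower, where 19.3% of all genes were called in each direction. Ccne2, a cyclin E, was at 8.10 and 8.26 in p-NSC_L, against 9.55 and 9.45 in mESC, and then at 9.65 and 9.75 in d-NSC, against 8.44 on both p-NSC_LF arrays. It fell by 1.32 ± 0.13 at the first of these steps and rose by 1.26 ± 0.13 at the other. Rbl2, the pocket protein p130, was at 7.53 and 7.40 in d-NSC, against 9.02 and 9.19 in mESC and 9.64 and 9.53 in CNS-NSC, and it fell by 1.64 against mESC and fell by 2.12 against CNS-NSC. E2f6, a repressive E2F, was at 10.09 and 10.26 in d-NSC, against 9.07 and 9.12 in mESC, a rise of 1.08 ± 0.11.

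Of 10 genes of replication-coupled chromatin assembly, 8 (80%) were called lower and 0 higher in d-NSC against mESC, where 19.9% of all genes were called lower. In d-NSC against CNS-NSC, 4 (40%) were called higher and 0 lower, where 17.6% of all genes were called higher. Hells, a chromatin remodeller needed for DNA methylation, was at 10.86 and 10.87 in d-NSC, against 11.88 and 11.98 in mESC and 9.64 and 9.96 in CNS-NSC, a fall of 1.07 and a rise of 1.06. Genes of the G2 and M phases fell too between mESC and d-NSC, 13 of 19 (68.4%) called lower with a median of -0.48, close to the -0.49 of the replication genes. Against CNS-NSC their median went the other way, -0.25 in d-NSC, with 3 of 19 (15.8%) called lower and 0 higher, a share close to the 16.5% of all genes called lower. Mki67, the proliferation antigen Ki-67, was at 11.59 and 11.53 in d-NSC, against 12.29 and 12.42 in CNS-NSC, and Aurkb, a mitotic kinase, at 11.06 and 10.91 in d-NSC, against 11.62 and 11.66 in CNS-NSC; they fell by 0.80 ± 0.13 and 0.66 ± 0.10. In that comparison the replication genes' median was 0.23, and 32.6% of them were called higher, beside 25.7% of genes at least as bright. Of the 8 licensing and MCM genes 5 were called higher, against 0 of the RPA, flap and ligation, and nucleotide supply genes. Mki67, Aurkb and Tk1, named as among the largest called falls of their lists, were lower, as was Rrm2. The difference between the lists was not tested.

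Markers of other cell types moved with these comparisons. Of 10 markers of postmitotic neurons, which do not replicate DNA, 8 were called higher and 1, Stmn2, lower (-0.95) in d-NSC against mESC, where 20.7% of all genes were called higher, with a list mean of 9.25 to 9.26 in d-NSC, against 8.18 in mESC and 8.79 to 9.34 in CNS-NSC. Dcx, of young neurons, was at 9.05 and 9.24 in d-NSC, against 5.94 and 6.01 in mESC, and at 8.93 and 6.56 in the 2 CNS-NSC cultures. Of 10 feeder fibroblast markers, 7 were called higher and 1, Thy1, lower (-1.49) in d-NSC against mESC, although only mESC are stated to grow on feeders, and the list mean was 8.15 to 8.19 in d-NSC, against 7.27 to 7.37 in mESC and 7.62 to 7.65 in CNS-NSC. Of 8 primitive endoderm markers, 6 were called higher in d-NSC against mESC and 7 in d-NSC against CNS-NSC, where 20.7% and 17.6% of all genes were called higher. Their list means were 8.73 in d-NSC, 7.47 to 7.62 in mESC and 7.65 to 7.69 in CNS-NSC. The ES cell markers of d-NSC lay between those of mESC and CNS-NSC, as did the median of the replication genes. The part of any of these cell types in the replication results was not tested.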

How the data were processed

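The deposited table holds log2 intensity values for 35556 probe sets on 10 Affymetrix gene arrays (Trizol RNA, Ambion whole-transcript kit, per the labels' protocols). RMA and Partek are named, without versions, in the submitters' processing notes; RMA subtracts background, normalizes between arrays and summarises probes, which makes distributions alike and compresses differences of dim genes. Log base 2 was inferred from the range of values (2.07 to 14.74). For the array annotation, no genome build is given in the sources used here. Scan dates were not analysed here.

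Probe sets with 1 gene symbol in the platform annotation (21789; 1621 had several and 12146 none) were used, and 21698 of them matched RefSeq. Where a gene had several probe sets (999 genes), the brightest on average stood for it, and 19938 genes resulted; 0 pairs of arrays held identical values. One mean per group was fitted with limma 3.58.1 in R 4.3.3 over all 10 arrays, so all groups inform 1 variance per gene (residual df 5, prior df 4.9, and a median SE of 0.13), with Benjamini-Hochberg adjustment per comparison over all genes and a threshold of 0.05. With 2 arrays per group, the number of arrays limits the precision. On simulated data for d-NSC against p-NSC_LF (19938 genes), the fit called 34% of the genes given a difference of 0.5, 72% of those given 1 and 100% of those given 2, with 3.4% of its 148 calls false. Nearly all genes were simulated without a difference, whereas 38.6% of all genes were called in the measured comparison. These shares therefore do not carry over to the measured comparison.

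The members, roles and further lists were chosen with earlier results of these data known. All members may be named; values on every array are given for called members with the 6 largest differences per comparison and for Orc1, Mcm2, Pcna, Rrm2 and Cdt1, and for Mcm3, Mcm5, Cdc45, Rrm1 and others where the text needs them. From each further list, up to 2 called rises and 2 called falls per comparison could be named. Alternatives were 2 further normalizations, a filter on dim genes, the mean of all probe sets, only the groups compared, a trended prior, array weights, the replicate number as a block, and leaving out each array in turn. Python 3.11.15 searched the promoters and drew the plots.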

Additional observations from a re-analysis of the deposited data

How the results depend on the processing

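Over 18 alternative settings no difference of a called member changed sign. The calls kept under every setting were 5 of 13 in p-NSC_L against mESC, 5 of 18 in d-NSC against p-NSC_LF, 6 of 15 in d-NSC against CNS-NSC and 20 of 27 in d-NSC against mESC. With only the 2 groups compared in the fit, 5 members were called in p-NSC_L against mESC. With arrays centred on their medians, the members' median was -0.29 in d-NSC against p-NSC_LF and -0.60 in d-NSC against mESC, while the all-gene median of the same comparisons was -0.106 and -0.08; of all genes called, 40% were then higher in d-NSC against p-NSC_LF, 41.5% in d-NSC against CNS-NSC and 39.9% in d-NSC against mESC, beside 49.9%, 51.6% and 51% as deposited. Leaving out each array in turn gave 5 to 15 calls (medians -0.36 to -0.16) in p-NSC_L against mESC, 0 to 1 in p-NSC_LF against p-NSC_L, 5 to 21 in d-NSC against p-NSC_LF, 7 to 19 in d-NSC against CNS-NSC, 23 to 31 in d-NSC against mESC, and 34 to 39 in the F-test; these fits have fewer arrays. The replicate numbers were not taken to pair the samples, since not every pair of groups passed 0.1: deviations of same-numbered arrays correlated over genes at 0.138 to 0.375 among mESC, p-NSC_L, p-NSC_LF and CNS-NSC, and at -0.107 to 0.094 in the pairs with d-NSC. With the replicate block, 14, 0, 19, 17 and 29 members were called in p-NSC_L against mESC, p-NSC_LF against p-NSC_L, d-NSC against p-NSC_LF, d-NSC against CNS-NSC and d-NSC against mESC. Limits that arrays share are the range of dim and bright probe sets and 2 cultures per group.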
